A study of Homo sapiens with 12 samples.

Results

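U937 cells are a human monocytic line derived from a histiocytic lymphoma. They were electroporated with a plasmid for GFP joined to PML-RARA, the fusion of the genes PML and RARA that drives acute promyelocytic leukemia, and the GFP-positive cells were sorted for RNA. The arrays compared here are those of cells sorted 9 h after transfer of the plasmid against those of cells sorted at 6 h. They were chosen by title and time, and are 8 of the 12 arrays of the series. At each time there were 2 arrays of cells with the wild-type fusion (PRWT) and 2 of cells with PR2VR. The series title speaks of protease resistance, and PR2VR is read here as the resistant mutant, but its own sample labels call it wild type as well. Another 4 arrays of cells with GFP alone, 2 at each time, served only for comparison. Titles count the hours of the fusion samples from infection and those of the GFP samples from transfection, while 1 protocol, electroporation, is given for all. Each group of construct and time had arrays numbered 1 and 2. The labels do not say whether these came from separate cultures, so every p-value reflects array-to-array spread alone, which may be technical.

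PML-RARA binds retinoic acid response elements as a repressor and breaks up the PML nuclear bodies, protein assemblies that are themselves enlarged by interferon. In promyelocytes it blocks maturation until retinoic acid releases it. U937 cells are monocytic and serve as a host in which the early response to the fusion can be read. In the interferon response, receptors for foreign nucleic acids start production of interferon, which acts back on cells to switch on a large set of antiviral genes. Immediate early genes, by contrast, are switched on within minutes of a stimulus and then decline.

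The arrays were all scaled by the authors to a trimmed mean signal of 1500.2, and their number limits the precision. The 2 PML-RARA arrays of 9 h with number 2 stood apart from the other 6. A set of 12 control probe sets read poly-A RNAs of Bacillus subtilis (lys, phe, thr and trp) that a laboratory may add to a sample. Across these, signals ran from 795.9 to 118595.8 with a median of 13032.4 on the 9 h arrays of number 2, against 8.3 to 297.9 with a median of 30.3 on the other 6 arrays. The GFP array of 9 h with number 2 had them at 1251.7 to 121536.3 too, and the other 3 GFP arrays at 4.9 to 268. The 9 h number 2 arrays also had the lowest ratios of 3′ to 5′ GAPDH signal, a measure of how complete the labelled RNA is, at 2.21 and 2.38, against 8.14 and 12.9 for 9 h number 1 and 3.82 to 8.28 at 6 h. Their median signals were 387.6 and 388.3, against 245.9 and 290.1 for 9 h number 1 and 238.8 to 292.4 at 6 h. Over the 4 arrays of each time, the log2 GAPDH ratio averaged 2.28 ± 1.28 at 9 h and 2.25 ± 0.54 at 6 h (SD, n = 4 each; exact permutation p = 1, two-sided, where the smallest possible is 0.0286). The 2 numbers of 9 h are therefore also set against 6 h separately below. What sets the number 2 arrays apart was not tested, and within number 2 it cannot be told apart from time.

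**Figure D1:**
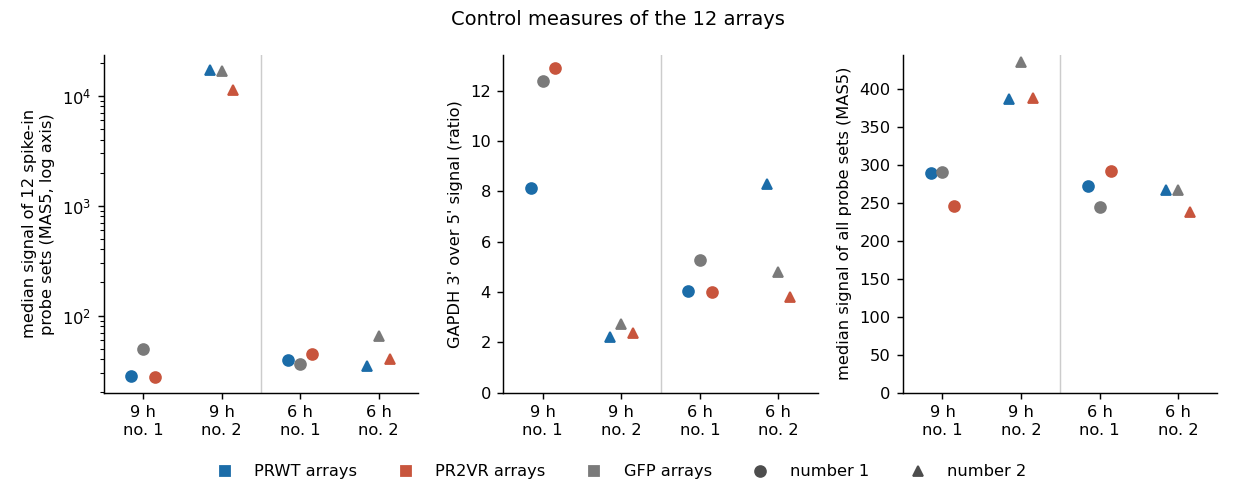
Median signal of 12 spike-in probe sets (left, log axis), ratio of 3′ to 5′ GAPDH signal (middle) and median signal of all probe sets (right) on each array, with 9 h left of 6 h in each panel. Colours mark the construct, circles number 1 and triangles number 2; the 9 h number 2 arrays have the brightest spike-ins, the lowest GAPDH ratios and the highest medians.

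The transferred gene and the identity of the cells were checked first. The brightest of the RARA probe sets read 32912, 54611, 29626 and 41097 in PML-RARA cells at 9 h, against 58985, 11971, 36892 and 9281 at 6 h. In GFP cells it was far dimmer, at 63.4 and 309.2 at 9 h and 63.4 and 48.2 at 6 h. Wherever 4 signals of a time are listed, they are those of PRWT number 1, PRWT number 2, PR2VR number 1 and PR2VR number 2, in that order. The RARA difference of 0.79 (SE 0.50) on the log2 scale did not pass (adjusted p = 0.62), and at 6 h the number 1 arrays were brighter than the number 2 arrays with both constructs. Its 3 other probe sets differed by -0.18 to 0.96. The RARA probe set at -0.18 (SE 0.29) was also far dimmer in GFP cells, at 181.9 to 671.1 against 3117 to 6793 in PML-RARA cells. PML differed by 0.37 (SE 0.30), again without passing, and its 8 other probe sets by -0.93 to 1.40, 7 of them above 0. The PML probe set at 0.37 read 5832 and 5111 in GFP cells at 9 h, against 5548 to 7420 in PML-RARA cells. This probe set therefore does not single out the fusion. Another PML probe set, at 0.75 (SE 0.44), was far dimmer in GFP cells, at 168 to 518.4 against 1601 to 9895 in PML-RARA cells. Signals of the other PML probe sets overlapped between the 2 kinds of cell. Of 10 markers of U937 cells, 9 had a probe set with 1 gene name. LYZ read 4137.5 to 21336 at 9 h and 3294 to 11120 at 6 h. ITGB2 read 7301 to 10967 at 9 h and 4819 to 20465 at 6 h. ANPEP, CEBPA and CD4 read 5296 to 5792, 2701 to 4440 and 1255 to 3329 at 9 h, overlapping 6 h. CSF3R was lower on each 9 h array, at 2108 to 2221 against 2624.5 to 3413 at 6 h, without passing. PTPRC, the leukocyte phosphatase CD45, read 18928 to 46039 at 9 h and 18346 to 42141 at 6 h. MPO, the myeloid peroxidase, was dim at 239.3 to 531.7 at 9 h and 79 to 279.5 at 6 h, and the probe set of SPI1, the myeloid factor PU.1, was too dim to test. Of 15 T and NK cell markers 9 had a mean signal under 168.9, and their summed signal was 5371 to 15558 at 9 h and 2959.8 to 11585 at 6 h. The 11 measured B cell and plasma cell markers summed to 7064 to 12065 at 9 h and 5328 to 6254.5 at 6 h, with 4 of them under that level. This sum was higher on each of the 9 h arrays, and its part in the results was not tested. The 11 erythroid and megakaryocyte markers summed to 2960.5 to 7980.1 at 9 h and 3208 to 19435 at 6 h, with 5 under that level. The 15 epithelial, fibroblast and endothelial markers summed to 7818 to 10501 at 9 h and 8295 to 9802 at 6 h, with 9 under it. A bulk signal cannot tell fewer cells of a type from less RNA per cell.

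Differences were tested with limma on log2(signal + 62.5) for 13959 genes, with construct as a factor. No gene passed an adjusted p (Benjamini-Hochberg) of 0.05 for 9 h against 6 h, so the share called was 0%, and the smallest adjusted p was 0.23. At an unadjusted p under 0.05 there were 872 genes higher at 9 h (6.25% of those tested) and 428 lower (3.07%), where 698 in all would be expected with no difference. The 9 h and 6 h arrays did not overlap for 540 genes higher at 9 h (3.87%) and 276 lower (1.98%), 5.85% in either direction. The median difference over all genes was 0.11. Centring each array on its own median instead moved that median to -0.12 and turned the split round, to 372 higher and 812 lower at an unadjusted p under 0.05 and to 272 higher and 437 lower without overlap. The direction of a small difference therefore depends on the scaling, and the lists below are read beside the median of all genes. With centred arrays, list medians turned below 0 for the proteasome (-0.12), the BCL2 family and caspases (-0.06), metallothioneins (-0.1), antigen presentation (-0.11), p53 targets (-0.04), histones (-0.16), Notch (-0.08) and the cytoskeleton (-0.13), while those of inflammatory chemokines and of PML body partners came to 0.03 each. Each gene was read from its brightest probe set, and values of other probe sets above the filter level are given for some of the genes only. Genes named without such values can have other probe sets that differed in sign or size. With the 4 sets of arrays (a time and a number) as a random block, 594 genes had an unadjusted p under 0.05, 378 higher and 216 lower, and again none passed. That is fewer than the 698 expected with no difference. Deviations of the 2 constructs within a set correlated across genes at 0.56 for 9 h and 0.21 for 6 h. The standard errors and list counts below come from the fit without this block, which takes the arrays of a time as independent. The genes named below as leading are 15 per direction, taken by the smallest unadjusted p among genes whose arrays did not overlap. Their lack of overlap is thus how they were chosen and is no finding. All differences are log2 differences of 9 h minus 6 h with their standard error (SE), and they understate changes of dim genes.

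Several of the leading genes that were higher at 9 h belong to the antiviral interferon response. GBP1, an interferon-induced GTPase that attacks vacuoles of intracellular pathogens, had signals of 2509, 5945, 1707 and 2411 at 9 h, against 396.8, 505.3, 189.1 and 864.2 at 6 h, a difference of 2.53 (SE 0.44), or 5.77-fold. IFI27, a mitochondrial protein induced by type I interferon, read 860.4, 868.4, 597.9 and 764.2 at 9 h and 159.3, 73.7, 45.7 and 197.8 at 6 h (2.28, SE 0.42). At 6 h all IFI27 signals but that of PR2VR number 2 lay under the filter level of 168.9. OAS3, which makes the oligoadenylates that activate RNase L, read 7084, 16806, 7578 and 13586 at 9 h and 2247, 4738, 2142 and 3487 at 6 h (1.79, SE 0.38), but its second probe set differed by -0.35 (SE 0.48). For all 3 genes the brightest 9 h array was PRWT number 2 and the dimmest 6 h array was PR2VR number 1. Their adjusted p was 0.23 to 0.3. The promoters of these genes are shown because each holds the core letters of the interferon response element. RefSeq promoters (GRCh38.p14, 250 bases before to 50 after the gene's start) were searched on both strands for the letters GAAA, NN and GAAA in a row, where N is any base, and the stretches around the matches follow, 5′ to 3′ along the gene's strand with each match in capitals. For GBP1 the stretch is chr1:89065301-89065360 (minus strand), for IFI27 chr14:94110603-94110675 (plus strand) and for OAS3 chr12:112938306-112938365 (plus strand).
GBP1: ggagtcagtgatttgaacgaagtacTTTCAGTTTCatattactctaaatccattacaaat
IFI27: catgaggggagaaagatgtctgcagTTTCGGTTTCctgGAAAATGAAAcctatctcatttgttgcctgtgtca
OAS3: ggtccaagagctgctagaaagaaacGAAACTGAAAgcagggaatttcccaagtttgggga
The matches begin at positions -127, -108 and -143 from the start of GBP1, IFI27 and OAS3. In all, 1255 of 35116 promoters held the motif (3.57%). A match describes these letters and is not a site shown to be bound.

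The list of interferon-stimulated genes held 34 genes, of which 32 were tested. Of these 28 had a difference above 0 and 4 below, with a median of 0.58, beside 8206 of 13959 genes above 0 and a median of 0.11 for all genes. None passed. At an unadjusted p under 0.05 there were 10 higher (31.2%, against 6.25% of all genes) and 0 lower, and 4 were higher without overlap (12.5%, against 3.87%). The 4 were OAS3, IFI27, OAS2 and XAF1. Of the list's 25 tested members with a promoter in the table, 20 held that motif (80%). XAF1, which promotes cell death by opposing XIAP, read 684.5, 1588, 1104 and 851.8 at 9 h and 289.5, 295.9, 191.8 and 518.6 at 6 h (1.53, SE 0.39). IFI35, an interferon-induced leucine zipper protein, differed by 1.73 (SE 0.54), with 1 overlap: PRWT number 2 of 6 h, at 547.7, lay above PRWT number 1 of 9 h and PR2VR number 1 of 9 h. DDX60, a helicase that aids RNA sensing, differed by 2.01 (SE 0.69). At the other end, IFITM3 (-0.35, SE 0.36) and MX1 (-0.05, SE 0.33), which restrict virus entry and replication, lay within 1 SE of 0, as did IFIT1 (0.22, SE 0.26), the sensor of uncapped RNA. The list's median was 0.44 for 9 h number 1 alone and 0.73 for 9 h number 2 alone. Leaving out PR2VR number 1 of 6 h moved the median of all 8 arrays to 0.25, leaving out PRWT number 1 of 6 h moved it to 0.34, and leaving out PRWT number 2 of 6 h moved it to 0.87.

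The 6 h arrays differed among themselves in these genes by number. DHX58, the RIG-I-like regulator LGP2, read 1775, 2114, 1052 and 1629.8 at 9 h and 202.7, 1721, 67.2 and 1099.8 at 6 h. Both number 1 arrays of 6 h were far below both number 2 arrays, which reached the range of 9 h, and its difference of 1.68 (SE 0.66) carries that spread. IRF7, the factor that amplifies type I interferon production, read 15513, 11930.4, 13307 and 8233 at 9 h and 3753, 11959, 2596 and 6549 at 6 h (1.17, SE 0.41) with the number 1 arrays again the dim ones at 6 h. RIGI, the cytosolic receptor for uncapped RNA, was bright, at 58958, 59132, 45512 and 43877 at 9 h against 14756, 21563, 7854 and 29196 at 6 h (1.64, SE 0.36, adjusted p = 0.33), and its other probe sets differed by 0.91 (SE 0.38) and 1.35 (SE 0.34). TLR7, an endosomal RNA receptor, differed by 0.94 (SE 0.39) (second probe set 0.08, SE 0.42), and IFI16, a nuclear DNA sensor, by 0.75 (SE 0.31). Of 13 tested genes in the list of cytosolic nucleic acid sensors, which also holds TLR7, 11 lay above 0 with a median of 0.58. At an unadjusted p under 0.05 there were 4 higher (30.8%, against 6.25% of all genes), and 2 were higher without overlap (15.4%, against 3.87%). Without PR2VR number 2 of 6 h that median was 0.22, without PRWT number 2 of 9 h or PR2VR number 1 of 6 h 0.32, and without PRWT number 2 of 6 h 0.35. CGAS and STING1, the sensor of cytosolic DNA and its adaptor, differed by 0.58 (SE 0.38) and 0.05 (SE 0.30), and the 2 other probe sets of CGAS by -0.36 and -0.13. Of 20 tested signalling factors of the interferon pathway, 8 lay above 0, with a median of -0.04. IRF8, which directs monocyte fate, was lower at 10558, 5586, 10584 and 9767 at 9 h, against 15273, 21165, 10123 and 13600.3 at 6 h (-0.71, SE 0.33), with PRWT number 2 the lowest 9 h array and the ranges overlapping.

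SP100, a constituent of PML nuclear bodies and itself interferon-induced, spread little within each time. Its signals were 10152, 11562, 10647 and 10545 at 9 h, against 3914, 4761, 4693 and 4824 at 6 h, a difference of 1.23 (SE 0.26), or 2.35-fold. Its 5 other probe sets differed by -0.86 to 2.32, 4 above 0 and 1 below. SP110, a relative of SP100, read 28325, 15564, 30749 and 12051 at 9 h and 6677, 16231, 5936 and 16954 at 6 h (0.97, SE 0.43), where the 9 h number 1 arrays were the brightest and the 9 h number 2 arrays lay within the 6 h range. SP140 differed by 1.23 (SE 0.59). Of 15 tested partners of PML nuclear bodies 9 lay above 0, with a median of 0.25. It was 0.05 without PRWT number 1 of 9 h, 0.08 without the number 2 array of either construct at 6 h, and 0.13 and 0.15 without PR2VR number 1 and PRWT number 1 of 6 h. DAXX, a chaperone of histone H3.3 held in these bodies, differed by 0.55 (SE 0.46) and its second probe set by -0.27, and USP7, a deubiquitinase, by -0.68 (SE 0.33) and its 3 other probe sets by -0.49 to 0.65. For 9 h number 1 the list's median was 0.35 and for 9 h number 2 it was -0.07.

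ZBTB32, a zinc finger repressor that restrains cytokine genes in lymphocytes, had the smallest unadjusted p of all genes (1.7e-05). It read 2814, 4948, 1618 and 3633 at 9 h and 356.9, 905.7, 239.1 and 451.2 at 6 h, a difference of 2.62 (SE 0.39), or 6.14-fold. In mean log2 signal it was 11.59 ± 0.67 at 9 h and 8.97 ± 0.71 at 6 h (SD, n = 4 each). Within each time the PRWT array exceeded the PR2VR array of the same number. SAMSN1, an adaptor that dampens B cell signalling, read 4405, 5624, 3034 and 4874 at 9 h and 1664, 1468, 1216 and 957.9 at 6 h (1.70, SE 0.29). MS4A4A, a tetraspanin-like protein of macrophages, read 3553, 11303, 3229.7 and 7764 at 9 h and 1133, 2208, 899.7 and 1267 at 6 h (2.06, SE 0.42), with both number 2 arrays of 9 h well above those of number 1. The other probe sets of MS4A4A differed by 0.74 (SE 0.64) and 1.8 (SE 0.54). GPR183, the oxysterol receptor EBI2 that guides immune cell migration, read 31111, 29395, 18270.2 and 19957 at 9 h and 4416, 7898, 5797 and 13737 at 6 h (1.72, SE 0.37). LRRN3, a leucine-rich repeat membrane protein, differed by 2.02 (SE 0.38). ZC3H12D, an RNA-binding nuclease that limits inflammation, differed by 1.38 (SE 0.29) with 6916 and 5399 on the 9 h arrays of number 2 and 7407 and 6916 on those of number 1. DCP1B, a cofactor of mRNA decapping, differed by 1.59 (SE 0.35), POGLUT3, a protein O-glucosyltransferase, by 1.82 (SE 0.39), and TRMT44, a tRNA methyltransferase, by 1.57 (SE 0.33), although the second TRMT44 probe set differed by 0.25 (SE 0.42). ESS2, a splicing-associated factor, read 547.8, 774, 238.2 and 1057 at 9 h, against 27.3, 44.7, 76.3 and 85 at 6 h (2.44, SE 0.51). On each 6 h array ESS2 was near the added offset and under the filter level of 168.9. It therefore passed the filter through other, brighter arrays. LINC02256, a long noncoding RNA, differed by 1.55 (SE 0.32).

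**Figure D2:**
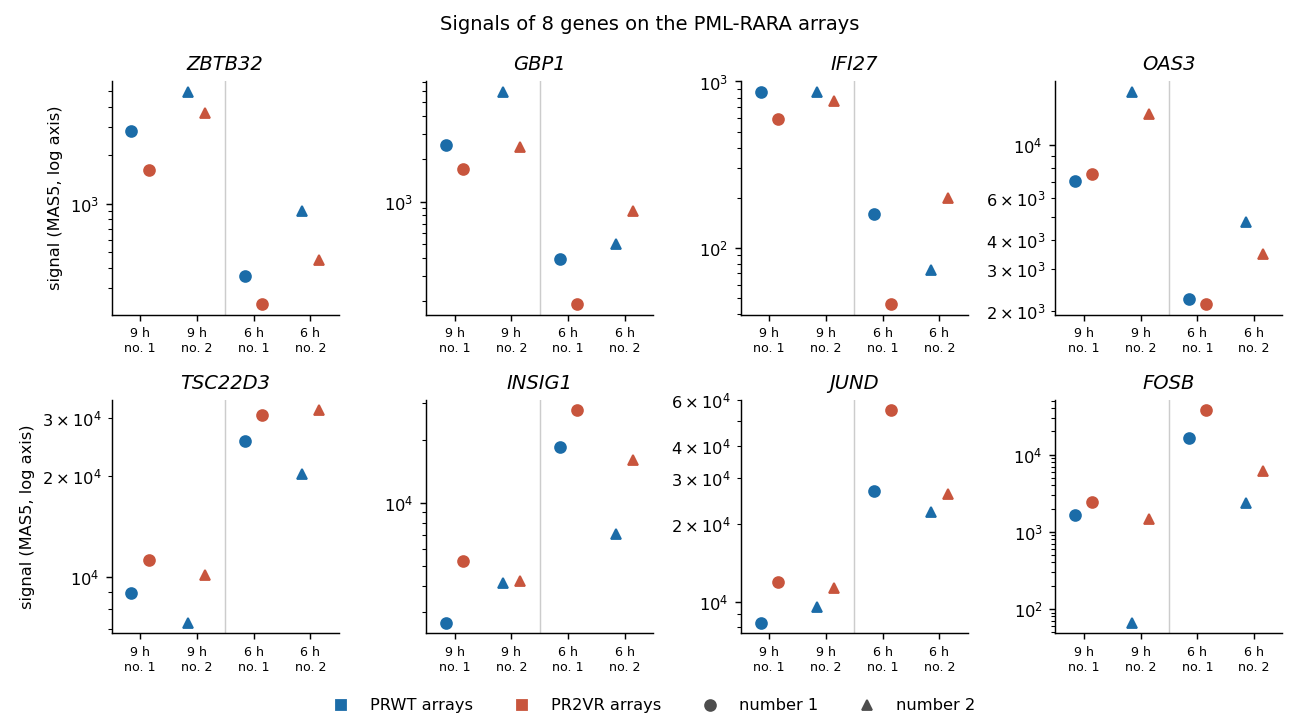
Signals (log axis) of 8 genes on the 8 PML-RARA arrays, with 9 h left of the grey line and 6 h right of it. Blue is PRWT, red PR2VR, circles number 1 and triangles number 2; ZBTB32, GBP1, IFI27 and OAS3 are higher on each 9 h array, TSC22D3, INSIG1 and JUND are lower, and FOSB is lowest on PRWT number 2 of 9 h, at 66.4.

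Most immediate early genes had lower values at 9 h. JUND, an AP-1 subunit, read 8317, 9595, 11907 and 11303 at 9 h, against 26918, 22186, 55017 and 26054 at 6 h, a difference of -1.57 (SE 0.29, adjusted p = 0.23). FOSB, an AP-1 subunit with a short-lived mRNA, had the largest difference of the group, -3.36 (SE 0.80), at 1628, 66.4, 2447 and 1470.3 at 9 h and 16347, 2389, 37609 and 6123 at 6 h. Its ranges overlapped through PR2VR number 1 of 9 h and PRWT number 2 of 6 h, and on both sides the number 2 array was dimmer than the number 1 array of its construct. EGR3, a zinc finger factor induced by growth signals, read 580.5, 549.8, 357.4 and 542.8 at 9 h and 1398, 1029, 839 and 1499 at 6 h (-1.12, SE 0.33). EGR1 differed by -1.25 (SE 0.45), JUN by -1.13 (SE 0.40), KLF6 by -1.05 (SE 0.40) and FOS by -0.78 (SE 0.30). The other probe sets of EGR1 differed by -0.22 and -0.40, those of JUN by -0.99 to -0.55 and the 4 of KLF6 by -1.35 to 0.88, 3 of them below 0. All 23 genes of the list were tested, of which 4 lay above 0 and 19 below, with a median of -0.39. None passed, 7 were lower at an unadjusted p under 0.05 (30.4%, against 3.07% of all genes) and 0 higher, and 2 were lower without overlap (8.7%, against 1.98%). Not every member went that way: JUNB differed by 0.06 (SE 0.32), ATF3 by -0.04 (SE 0.28) and NR4A1 by 0.24 (SE 0.52). The 2 other probe sets of ATF3 differed by 0.72 and 0.82, and the second probe set of NR4A1 by -0.05. The list's median was -0.18 for 9 h number 1 and -0.51 for 9 h number 2.

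DUSP1, the phosphatase that ends MAP kinase signalling and an early gene itself, read 1858, 1178, 2081 and 1778 at 9 h and 3806, 2108, 5026 and 4333 at 6 h (-1.08, SE 0.31), but its second probe set differed by -0.10 (SE 0.44). DUSP10, which acts on JNK and p38, differed by -0.95 (SE 0.35), and its second probe set by -0.01 (SE 0.34). SPRED1, an inhibitor of the Ras pathway, differed by 0.73 (SE 0.33) (second probe set -0.26, SE 0.71), and on PR2VR number 2 of 6 h it was as bright as at 9 h. Of 13 tested phosphatases and Sprouty-type inhibitors 6 lay above 0, with a median of -0.16. That median was 0.2 for 9 h number 1 and -0.29 for 9 h number 2. The promoters of JUND and DUSP1 are shown because both hold TGACGTCA, the palindrome bound by CREB and ATF factors, in the same RefSeq window searched on both strands. The stretches are chr19:18281790-18281847 (minus strand) for JUND and chr5:172771288-172771345 (minus strand) for DUSP1, 5′ to 3′ along the gene, with the match in capitals.
JUND: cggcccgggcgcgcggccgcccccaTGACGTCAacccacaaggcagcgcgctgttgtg
DUSP1: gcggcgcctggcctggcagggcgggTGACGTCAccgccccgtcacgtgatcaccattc
The matches begin at positions -200 and -125. The motif was in 649 of 35116 promoters (1.85%), and JUND was the only one of the 16 tested immediate early genes with a promoter in the table to hold it (6.25%).

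TSC22D3, known as GILZ and induced by glucocorticoids and FOXO factors, had the smallest unadjusted p among the lower genes (5.2e-05). It read 8935, 7292, 11218 and 10136 at 9 h, against 25553, 20299, 30467 and 31587 at 6 h, a difference of -1.51 (SE 0.25), or 2.85-fold lower, while its second probe set differed by -0.31 (SE 0.60). In mean log2 signal it was 13.19 ± 0.27 at 9 h and 14.70 ± 0.29 at 6 h (SD, n = 4 each). The 2 constructs and both numbers lay close together within each time. In its list of FOXO and glucocorticoid responsive genes, 6 of 17 tested members lay above 0, with a median of -0.15. That median was -0.04 for 9 h number 1 and -0.55 for 9 h number 2. BCL6, a germinal centre repressor, differed by -1.18 (SE 0.43) and its second probe set by 0.33 (SE 0.46). CITED2, a coactivator that competes for p300, had the opposite sign, at 20392, 27284, 16178 and 21713 at 9 h and 7527, 9505, 7792 and 12636 at 6 h (1.19, SE 0.29). PMEPA1, which curbs TGF-beta signalling by sequestering SMADs, read 1383, 818.1, 1997 and 1161 at 9 h and 3965, 3428, 3943 and 4383 at 6 h (-1.57, SE 0.31), and its other probe sets differed by -0.88 (SE 0.46) and -1.37 (SE 0.38). SMAD7, the inhibitory SMAD, differed by -0.82 (SE 0.30), without overlap. Of the 17 tested TGF-beta feedback and ID genes 3 were lower without overlap (17.6%, against 1.98% of all genes), with a median of -0.07.

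MYADM, a membrane raft protein of myeloid cells, read 40343, 39226, 55933 and 45895 at 9 h, against 104702, 105891, 143549 and 99025 at 6 h (-1.32, SE 0.24), and its second probe set differed by -1.64 (SE 0.29). TNFRSF10D, a decoy receptor for the death ligand TRAIL, read 2092, 2709, 4097 and 4237 at 9 h and 7457, 7702, 7978 and 11155 at 6 h (-1.41, SE 0.28), with the PR2VR arrays above the PRWT arrays at 9 h. Its ligand TNFSF10 (TRAIL) differed by 1.33 (SE 0.61) in the other direction. PDE9A, a phosphodiesterase that degrades cyclic GMP, read 281.1, 369.8, 136.5 and 207.2 at 9 h and 924.4, 970, 894.9 and 1333 at 6 h (-1.85, SE 0.36). RAPGEF2, an exchange factor for Rap, differed by -1.35 (SE 0.30), although 4 other probe sets of the gene ran from -0.98 to 0.36. RAC2, a GTPase of the phagocyte oxidase and cytoskeleton, differed by -1.11 (SE 0.28), and its second probe set by 0.55 (SE 0.66). FRMD3 differed by -1.31 (SE 0.32) (others -0.52 and 0.14), BUD23, a methyltransferase of the small ribosomal RNA, by -1.14 (SE 0.27), and EIF4B, a helper of the initiation helicase, by -1.06 (SE 0.26) (others -0.58 and 0.55). DPEP2, a dipeptidase, was dim at 78.1, 312.5, 121.8 and 106.5 at 9 h against 767.6, 791.3, 360.7 and 1577 at 6 h (-2.06, SE 0.49). PPARA, the fatty acid sensing nuclear receptor, differed by -1.47 (SE 0.36), while its 5 other probe sets ran from -1.15 to 0.91.

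Genes of cholesterol synthesis that SREBP factors control mostly had lower values at 9 h. INSIG1, which holds SREBP in the endoplasmic reticulum and is itself an SREBP target, read 2669.6, 4155, 5272 and 4224 at 9 h, against 18406, 7117, 27698 and 16089.8 at 6 h, a difference of -1.95 (SE 0.35, adjusted p = 0.23). Its other probe sets differed by -0.37 (SE 0.32) and -1.53 (SE 0.35). STARD4, a sterol carrier, read 1098, 1414, 2351 and 1717 at 9 h and 3881, 2680.1, 3402 and 6757 at 6 h (-1.28, SE 0.32). HMGCS1, which makes HMG-CoA, differed by -1.52 (SE 0.43) with overlap, since PR2VR number 1 read 3462 at 6 h, and its second probe set differed by -0.01 (SE 0.46). IDI1, FDPS, SQLE and MSMO1, enzymes on the way to cholesterol, differed by -1.09 (SE 0.34), -0.92 (SE 0.31), -0.82 (SE 0.27) and -0.75 (SE 0.29), and the 3 other probe sets of IDI1 by -1.19 to -0.12. Of 22 tested genes of cholesterol and fatty acid synthesis 7 lay above 0 and 15 below, with a median of -0.54. None passed, and 7 were lower (31.8%, against 3.07% of all genes) and 2 higher (9.09%, against 6.25%) at an unadjusted p under 0.05. Without overlap, 3 were lower (13.6%, against 1.98%) and 1 higher (4.55%, against 3.87%). The 2 higher at that p were SREBF2, the SREBP of sterol synthesis, at 0.92 (SE 0.33) (other probe sets -0.24 and 0.40), and HSD17B7, a sterol reductase, at 1.86 (SE 0.60). FASN, the fatty acid synthase, differed by 0.40 (SE 0.42). The median was -0.40 for 9 h number 1, -0.60 for 9 h number 2 and -0.65 in GFP cells.

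Genes of DNA replication and of mitosis mostly had slightly higher values at 9 h. Of 38 tested genes of replication and S phase 33 lay above 0, with a median of 0.39, and of 39 genes of G2 and mitosis 31 lay above 0, with a median of 0.39. None passed. At an unadjusted p under 0.05 there were 6 higher in the first list (15.8%) and 5 higher (12.8%) and 1 lower in the second, beside 6.25% higher over all genes. The replication median was 0.25 without PR2VR number 2 of 6 h and 0.60 without PR2VR number 1 of 6 h. POLE2, a subunit of the leading-strand polymerase, read 5287, 6969, 4798 and 3927 at 9 h and 3074, 3210.2, 2451 and 2606 at 6 h (0.85, SE 0.27), and its catalytic partner POLE differed by 1.06 (SE 0.38), with PR2VR number 1 of 6 h, at 2532, inside the 9 h range. CCNE2, an S phase cyclin, differed by 1.05 (SE 0.38), and TYMS, thymidylate synthase, by 0.69 (SE 0.26). BUB1, a kinase of the spindle checkpoint, read 8524, 12742, 7972 and 10451 at 9 h and 6028, 3969.8, 5304 and 3666 at 6 h (1.06, SE 0.30), and its 3 other probe sets differed by 0.18 to 0.29. KIF11, the motor that separates the spindle poles, differed by 0.78 (SE 0.31), and DLGAP5, a spindle protein, by 0.71 (SE 0.29). CKS2, a small partner of cyclin-dependent kinases, had the opposite sign at -1.15 (SE 0.44), with 1 bright 6 h array (PRWT number 2, 66064). MCM2, MCM3 and MCM7, subunits of the replicative helicase, lay at -0.15 (SE 0.48), -0.40 (SE 0.43) and -0.55 (SE 0.36), and CCNB1, the mitotic cyclin, at 0.05 (SE 0.27). With arrays centred on their medians both list medians were 0.16, beside -0.12 for all genes. Cell cycle phases were not measured.

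Messages for the ribosome and for amino acid stress mostly had slightly lower values. Of 32 tested cytosolic ribosomal protein genes 31 lay below 0, with a median of -0.36, although under quantile normalization the median was -0.05 and 12 lay above 0. RPL8 was the only one at an unadjusted p under 0.05 (3.12%, against 3.07% of all genes), at 94898, 92091, 79391 and 80031 at 9 h and 124136, 196131, 129061 and 130079 at 6 h (-0.72, SE 0.23). The ribosomal median was -0.15 for 9 h number 1 and -0.48 for 9 h number 2, and -0.21 over both without PRWT number 2 of 6 h. Many of these genes have processed pseudogenes that could share signal. Of 19 tested genes of the ATF4 amino acid response 3 lay above 0, with a median of -0.34. ATF4 itself read 45846, 42349, 46863 and 49805 at 9 h, against 82675, 117002, 65342 and 68479.6 at 6 h (-0.81, SE 0.25, no overlap), and CHAC1, which degrades glutathione, differed by -1.04 (SE 0.51). DDIT4, an inhibitor of mTORC1, differed by -1.44 (SE 0.32) for 9 h number 1 and by 0.16 (SE 0.32) for 9 h number 2. Among noncoding RNAs, DANCR read 1337, 326.7, 1817 and 2077 at 9 h and 3832, 6008, 2682 and 2064 at 6 h (-1.49, SE 0.52) and EPB41L4A-AS1 10124, 10618, 9835 and 11633 at 9 h and 13373, 22487, 17303 and 19851 at 6 h (-0.76, SE 0.27), with its second probe set at -0.10 (SE 0.36). Of 9 tested long noncoding RNAs 7 lay below 0, with a median of -0.63. That median was -0.07 for 9 h number 1 and -0.66 for 9 h number 2. HNRNPA1, a splicing regulator, read 30391, 14995, 23914 and 15965 at 9 h and 32588, 34423, 41347 and 36916 at 6 h (-0.82, SE 0.29), its dimmest 9 h arrays were those of number 2, and its other probe sets differed by 0.09 and -0.42. Proteasome subunits gave no direction, with a median of 0.10 that turned to -0.12 with centred arrays.

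Inflammatory and monocyte genes were mixed. CCL5, a chemokine for T cells and monocytes, read 46913, 65946, 43149.7 and 47807 at 9 h and 12048, 38552, 20481 and 36784 at 6 h (1.04, SE 0.37), and its other probe sets differed by 0.50 and -0.07. CXCL11, an interferon-induced chemokine, differed by 1.02 (SE 0.40), and IL1RN, the antagonist of the interleukin-1 receptor, by 0.84 (SE 0.28), the last without overlap. CCL20, a chemokine for lymphocytes and dendritic cells, had the opposite sign at 565.1, 174.7, 733.6 and 260.4 at 9 h and 3225, 1089, 658.7 and 950.7 at 6 h (-1.54, SE 0.51). Of 21 tested inflammatory chemokines and cytokines 16 lay above 0, with a median of 0.26, and 5 were higher (23.8%, against 6.25% of all genes) and 1 lower (against 3.07%) at an unadjusted p under 0.05. The median was -0.05 without PR2VR number 1 of 6 h, 0.17 and 0.44 without PR2VR number 2 and number 1 of 9 h, 0.58 without PR2VR number 2 of 6 h and 0.65 without PRWT number 2 of 6 h. NF-kB factors, inhibitors and targets had 10 of 21 above 0 and a median of -0.05. CD36, a scavenger receptor of monocytes, read 24589, 28051, 24706 and 23776 at 9 h and 10538, 12221, 7218 and 13254 at 6 h (1.25, SE 0.28), but its 3 other probe sets ran from -1.08 to 0.52. FCGR2A, an Fc receptor, differed by 0.77 (SE 0.30). MARCO, another scavenger receptor, read 2006, 229.8, 1615 and 159.6 at 9 h and 3216, 1968, 2602 and 1462 at 6 h, a difference of -1.73 (SE 0.65), with the 9 h number 1 arrays inside the range of 6 h. Of 25 tested monocyte and macrophage genes 21 lay above 0, with a median of 0.39, and 3 were higher without overlap (12%, against 3.87% of all genes). HLA-DRA, a chain of MHC class II, read 1066, 1296, 792.3 and 1269.5 at 9 h and 2626, 6086, 1249 and 6700.2 at 6 h (-1.60, SE 0.47), and its second probe set differed by -2.68 (SE 0.45). The number 2 arrays of 6 h were the bright ones, at 6086 and 6700.2, while TAP1, the peptide transporter of class I, differed by 0.95 (SE 0.42).

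Enzymes that break down tryptophan, along the kynurenine route or otherwise, and aryl hydrocarbon receptor targets, included several higher values. IL4I1, an amino acid oxidase, read 2440.4, 3870.0, 2247 and 1780.1 at 9 h and 514.7, 2407, 362.6 and 837.6 at 6 h (1.57, SE 0.44), and KYNU, kynureninase, 905.7, 2779.8, 805.4 and 1739 at 9 h and 481.4, 689.7, 204 and 766.8 at 6 h (1.39, SE 0.46). The 3 other probe sets of KYNU differed by 0.16 to 1.13. TIPARP, a target of the receptor that feeds back on it, was lower at -0.85 (SE 0.34), and QPRT, which leads the pathway to NAD, at -0.70 (SE 0.31). Of 14 tested members 10 lay above 0, with a median of 0.46. Among cell death genes, HRK, a BH3-only protein, read 264.2, 742.2, 257.8 and 613.3 at 9 h and 221, 37.5, 172.3 and 11.7 at 6 h (1.71, SE 0.57), and CASP1, the inflammasome caspase, differed by 0.80 (SE 0.31). In the list of the BCL2 family and caspases 15 of 23 lay above 0 and 3 were higher without overlap (13%, against 3.87% of all genes). CTSL, a lysosomal protease, was dim at 200.7, 671.9, 279.3 and 493.5 at 9 h and 129.3, 29.4, 58.8 and 17.4 at 6 h. Its difference was 1.94 (SE 0.54). The 6 h signals of CTSL all lay under the filter level of 168.9, so it passed the filter through other, brighter arrays. HRK was under that level on the number 2 arrays of 6 h, at 37.5 and 11.7. DLL1, a Notch ligand, read 1728, 2351, 2277 and 1933 at 9 h and 1003, 1159.8, 713.9 and 924.6 at 6 h (1.08, SE 0.29).

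Genes that retinoic acid induces in myeloid cells, which the fusion is known to hold down, showed no gene that passed between 9 h and 6 h. Of 15 tested genes 11 lay above 0, with a median of 0.31, 2 were higher (13.3%, against 6.25% of all genes) and 1 lower (against 3.07%) at an unadjusted p under 0.05. Without PRWT number 1 of 9 h the median was 0.55. DHRS9, a retinol dehydrogenase, read 13017, 14914, 21807 and 18286 at 9 h and 7606, 11354, 4272 and 16166 at 6 h (0.92, SE 0.39), RET, a receptor kinase, differed by 1.21 (SE 0.50), and STRA6, the retinol transporter, by 0.65 (SE 0.32). PRAM1, an adaptor that PML-RARA is known to repress, differed by -0.95 (SE 0.41). CYP26A1, which degrades retinoic acid, differed by 0.80 (SE 0.49) and RARB by 0.31 (SE 0.42), with the 2 other probe sets of RARB at -0.94 and 0.09. The list's median was 0.31 in PML-RARA cells and 0.66 in GFP cells, which lack the fusion, and the difference between these was not tested. Such a gap was not particular to this list. Histones had 0.06 in PML-RARA and 0.61 in GFP cells, and metallothioneins 0.13 and 0.58. PML body partners went the other way, at 0.25 and -0.07. Retinoid receptors and corepressors had 8 of 17 above 0 and a median of -0.04. Of the 22 tested myeloid transcription factors 10 lay above 0, with a median of -0.07. MEIS1, a homeobox factor of leukemia cells, read 5899, 5263, 6268 and 4899.5 at 9 h and 3598, 2788, 3962 and 2471 at 6 h (0.81, SE 0.29). GFI1, a transcriptional repressor, differed by 0.82 (SE 0.31). TRIB1, which degrades C/EBP alpha, differed by -1.32 (SE 0.49), and the 9 h number 2 arrays, at 2526 and 2783, lay below those of number 1, at 8732 and 9577. Granule protein genes had 6 of 12 above 0, with a median of -0.09. Lists for heat shock chaperones, folding in the endoplasmic reticulum, tRNA synthetases, the NRF2 response, metallothioneins, hypoxia and glycolysis, antigen presentation, p53 targets, histones, ribosome biogenesis, oxidative phosphorylation, splicing, Notch, cytokine feedback, autophagy and the cytoskeleton had medians from -0.25 to 0.18, and those above 0 turned below 0 with centred arrays. The list of lipid efflux genes had a median of -0.50 over 7 tested genes, led by the apolipoprotein gene APOC1 at -1.75 (SE 0.63), and one of -0.28 without PR2VR number 1 of 6 h.

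**Figure D3:**
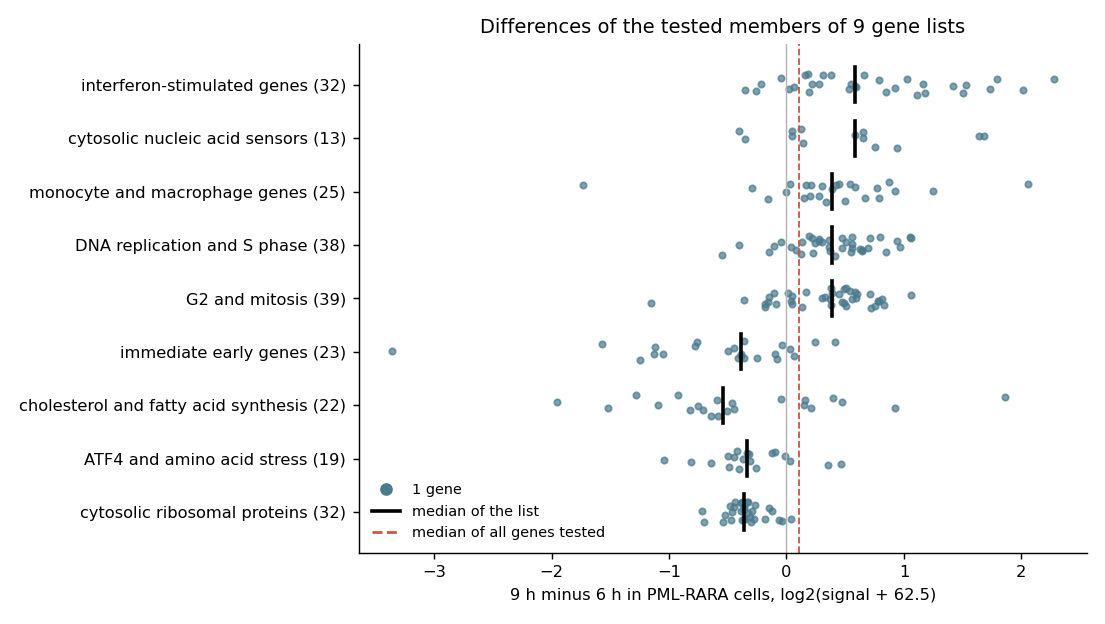
Log2 difference of 9 h minus 6 h in PML-RARA cells for each tested member of 9 gene lists (points, with the number tested in brackets), with the list's median as a black bar and the median of all genes, 0.11, as a dashed line. Interferon-stimulated genes, with a median of 0.58, lie mostly right of the dashed line, and cholesterol genes, with -0.54, mostly left of it.

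The 9 h arrays were then set against the 4 arrays of 6 h by number, 2 arrays at a time. For 9 h number 1, whose spike-in signals were as dim as at 6 h, no gene passed, 793 had an unadjusted p under 0.05 (407 higher and 386 lower) where 698 would be expected, and the median difference was 0.06. For 9 h number 2, 74 genes passed, 41 higher (0.294%) and 33 lower (0.236%), 3057 had an unadjusted p under 0.05, and the median was 0.17. Leaving out PRWT number 1, PRWT number 2 or PR2VR number 1 of 9 h, or PRWT number 1 of 6 h, left 0 calls, and leaving out PR2VR number 2 of 9 h left 1. Leaving out PRWT number 2, PR2VR number 1 or PR2VR number 2 of 6 h gave 30, 398 and 217. With 1 array of 9 h number 2 left out, the lone array is assumed to vary like the other groups. The number 1 arrays of 9 h are outside the contrast and enter it only through the shared spread and the construct term. The 2 contrasts share the 6 h arrays. Over sets that share none, 9 h number 1 minus 6 h number 1 and 9 h number 2 minus 6 h number 2 correlated across the 13959 genes at r = 0.01, with the same sign for 50.7%, and the crossed pairs at r = -0.10, with 47.5%. These are descriptions across genes, which are not replicates, and each value carries the deviations of its own set.

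The leading genes lay on the same side with either number, which their choice fixed in advance. ZBTB32 differed by 2.13 (SE 0.41) for 9 h number 1 and by 3.10 (SE 0.41) for 9 h number 2, where it passed (adjusted p = 0.019). IFI27 differed by 2.19 (SE 0.49) and 2.36 (SE 0.49), TSC22D3 by -1.40 (SE 0.28) and -1.62 (SE 0.28), and INSIG1 by -2.03 (SE 0.43) and -1.88 (SE 0.43) for numbers 1 and 2. These genes were chosen because their 9 h and 6 h arrays did not overlap, so their agreement in sign is no finding. GPANK1, a gene of the MHC region, had the smallest unadjusted p among those higher for 9 h number 1, at 16485 and 13516 on its arrays, against 5671, 6281, 2732 and 3238 at 6 h (1.81, SE 0.33). For 9 h number 2 it differed by 0.36 (SE 0.33). Its second probe set went the other way, at -0.61 (SE 0.37) for number 1 and -1.81 (SE 0.37) for number 2. Among genes that passed for 9 h number 2, MARCO fell to 229.8 and 159.6, against 3216, 1968, 2602 and 1462 at 6 h (-3.16, SE 0.37, adjusted p = 0.017). RAB11FIP1, an effector of recycling endosomes, fell to 861.6 and 1438, against 10749, 3673, 14508 and 10919 at 6 h (-2.93, SE 0.42). RAB11FIP1's other probe sets differed by -0.60 (SE 0.34) and -0.61 (SE 0.42) for number 2. SNX8, a sorting nexin, rose to 2534 and 2504, against 62.8, 39.3, 26.4 and 439.4 at 6 h (4.06, SE 0.75), and CARMIL3, a regulator of actin capping, rose to 2191 and 2355, against 73.7, 192.4, 163.7 and 52.1 (3.75, SE 0.54). AFAP1, an actin-linked adaptor, rose by 3.40 (SE 0.51), SH2D1A, the lymphocyte adaptor SAP, by 3.29 (SE 0.52), and the noncoding LINC03008 by 3.67 (SE 0.55). Without the 9 h number 2 arrays, that of GFP included, the mean log2 values turned back to signals of SNX8, CARMIL3, LINC03008 and SH2D1A were 89.9 to 118.4, under the filter level of 168.9, so they passed the filter through the arrays on which they were high, and AFAP1 averaged 254.8. Their sizes follow the offset: with an offset of 16 the 5 differed by 3.88 to 4.73 and none passed (adjusted p 0.056 to 0.075), and with an offset at the 40th percentile by 2.40 to 3.16. The plasma protein gene ITIH4 fell by 2.77 (SE 0.45) on the log2 scale, but an offset of 16 selected another of its probe sets, which differed by 1.22 there.

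Between the 9 h numbers, 6 genes passed: 2 were higher on number 2 (0.0143%) and 4 lower (0.0287%). AURKB, the kinase of the chromosomal passenger complex, had 1854 and 1695 on the 9 h number 2 arrays, against 99.5 and 91.6 on those of number 1 (3.54, SE 0.45, adjusted p = 0.042), and 720, 677.9, 790.9 and 396.4 at 6 h. CCPG1, a receptor for autophagy of the endoplasmic reticulum, had 5847 and 6029 on number 2, against 400.4 and 1086 on number 1 (3.04, SE 0.41). SART3, a recycling factor of spliceosomal RNA, had 1295 and 955.4 on number 2, against 10967 and 9921 on number 1 (-3.16, SE 0.36), and ELOA, elongin A, 632.4 and 721.9 against 6169 and 6013 (-3.06, SE 0.40). Between the numbers, the second probe set of AURKB differed by 0.36 (SE 0.75), the 2 others of SART3 by -0.20 and 0.40, and the 3 others of ELOA by -0.42 to 1.30. The metalloprotease gene ADAM33 had 91.9 and 459.6 on number 2, against 4576 and 5167 on number 1 (-4.12, SE 0.56), and KCNQ1OT1, an imprinted nuclear RNA, 55.5 and 198 against 1011 and 1466 (-2.87, SE 0.40, second probe set -1.39, SE 0.68). GFP cells had 2110 on 9 h number 2 and 459.6 on 9 h number 1 for AURKB, and 497.9 and 6921 for ELOA. In each of the 6 genes the PRWT and PR2VR arrays of a number lay together and the 6 h arrays lay between the numbers or beside number 1. Leaving out 1 array gave from 0 to 55 calls: 0 without PRWT number 2 or PR2VR number 1 of 9 h or either PRWT array of 6 h, 1 without PRWT number 1 or PR2VR number 2 of 9 h, 55 without PR2VR number 1 of 6 h and 16 without PR2VR number 2 of 6 h. The 6 h arrays enter this contrast only through the shared spread and the construct term.

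**Figure D4:**
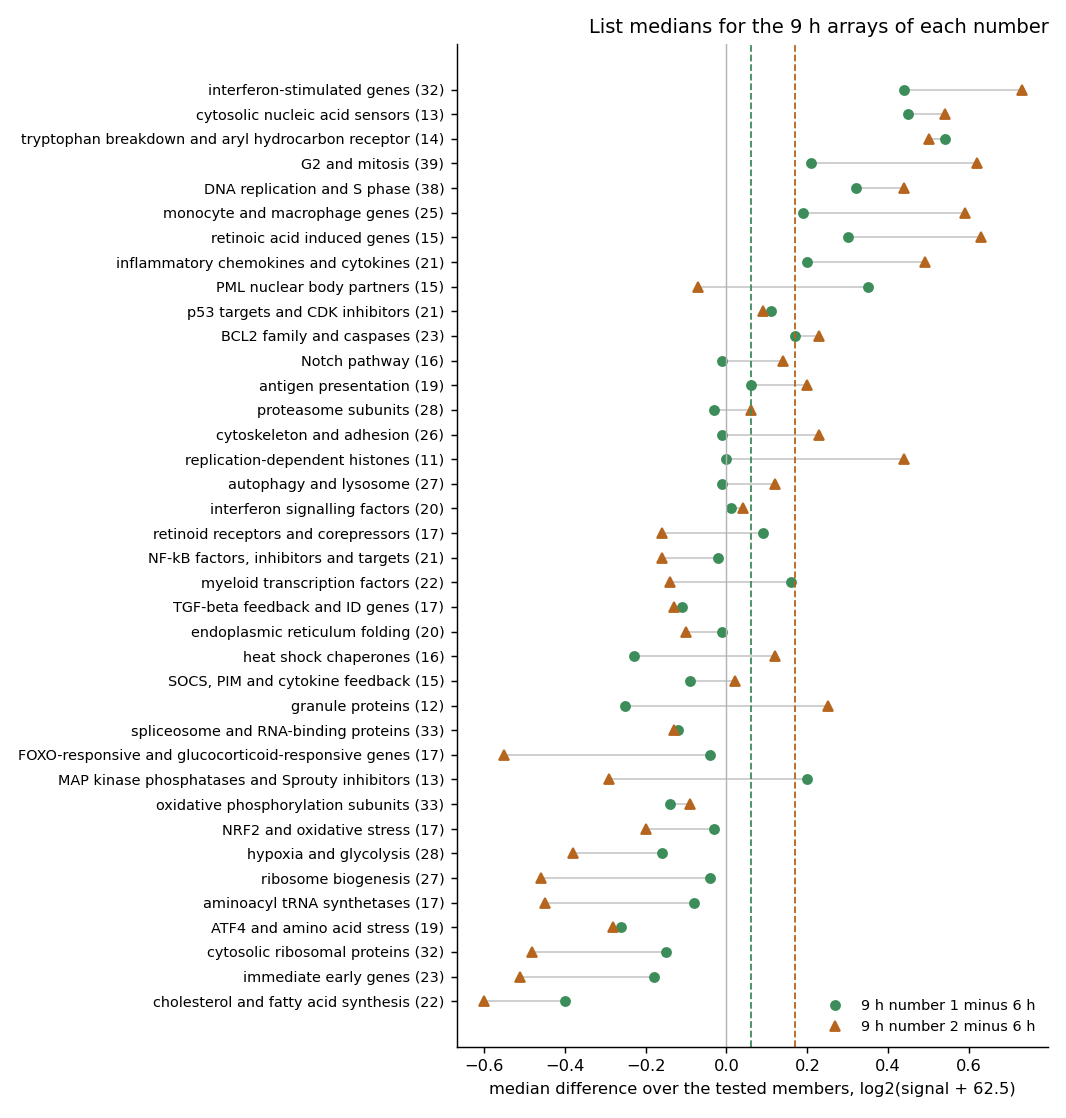
Median log2 difference of 9 h number 1 minus 6 h (green circles) and 9 h number 2 minus 6 h (brown triangles) for gene lists with at least 10 tested members (number tested in brackets), with the medians of all genes, 0.06 and 0.17, as dashed lines. Both contrasts share the 4 arrays of 6 h; the cholesterol list is at -0.40 and -0.60 and the interferon-stimulated list at 0.44 and 0.73.

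The constructs were compared in how they differed between the times, which asks whether the protease-resistant form gave another course than the wild type. No gene passed for PR2VR (465 at an unadjusted p under 0.05), for PRWT (490), or for the difference between them (104, where 698 would be expected), all with limma and 4 residual degrees of freedom. The changes of the 2 constructs correlated across genes at r = 0.42, with the same sign for 66.9%. They share no array but share the sets, so the value also holds what is common to a set. ZBTB32 differed by 2.66 (SE 0.60) in PR2VR cells and 2.57 (SE 0.60) in PRWT cells, GBP1 by 2.12 (SE 0.64) and 2.94 (SE 0.64), and INSIG1 by -2.15 (SE 0.54) and -1.76 (SE 0.54). The median standard error of the difference between constructs was 0.80. The interferon-stimulated list had medians of 0.67 in PR2VR cells and 0.33 in PRWT cells. The immediate early list had -0.47 and -0.38, and the cholesterol list -0.54 and -0.59. Where PR2VR minus PRWT was above 0, the smallest unadjusted p values belonged to SNX11, a sorting nexin, WAS, the actin regulator of blood cells, and SPATA24. Below 0 they belonged to ARHGAP5-AS1, LINC01267 and NPY2R, which did not pass either. WAS read 22786 and 19298 in PR2VR cells and 3934 and 9092.5 in PRWT cells at 9 h, against 9061 and 3784 in PR2VR cells and 14506 and 13413 in PRWT cells at 6 h, a difference between constructs of 3.04 (SE 0.76, adjusted p = 1). SNX11 gave 2.92 (SE 0.72) and SPATA24 3.45 (SE 0.90), both with an adjusted p of 1.

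Cells with GFP alone, sorted at the same times, were compared next. No gene passed in GFP cells (677 at an unadjusted p under 0.05), nor for PML-RARA minus GFP (106, where 698 would be expected, and 434 with the set as a fixed block). The differences of PML-RARA and GFP cells correlated across genes at r = 0.55, with the same sign for 72.7%, and again the sets are shared. All 30 leading genes had the sign of PML-RARA cells in GFP cells. ZBTB32 differed by 2.62 (SE 0.39) in PML-RARA cells and by 2.97 (SE 0.55) in GFP cells, where it read 6313 and 10453 at 9 h and 925.4 and 1048 at 6 h. GBP1 differed by 2.53 (SE 0.44) in PML-RARA cells and 2.05 (SE 0.60) in GFP cells, TSC22D3 by -1.51 (SE 0.25) and -1.50 (SE 0.35), and INSIG1 by -1.95 (SE 0.35) and -1.67 (SE 0.51). JUND differed by -1.57 (SE 0.29) in PML-RARA cells and -0.85 (SE 0.40) in GFP cells, PMEPA1 by -1.57 (SE 0.31) and -0.55 (SE 0.55), and DUSP1 by -1.08 (SE 0.31) and -0.03 (SE 0.41). For DUSP1 the difference between PML-RARA and GFP cells was -1.05 (SE 0.51), with an adjusted p of 1. The list medians were 0.58 in PML-RARA and 0.67 in GFP cells for interferon-stimulated genes, -0.54 and -0.65 for cholesterol synthesis, -0.39 and -0.39 for immediate early genes, and 0.39 and 0.34 for replication. A p that misses the threshold does not show that the 2 kinds of cell followed the same course, and the median standard error of this contrast was 0.66.

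The genes with the smallest unadjusted p for PML-RARA minus GFP were ZNF850, TRIM65, HDAC7, FOLR1 and EPOP on the higher side and C1RL, LOC101927377, LINC01723, ZFPM1 and VAMP5 on the lower side, all with an adjusted p of 1. ZNF850, a zinc finger gene, read 573.4, 862, 628.6 and 976.5 in PML-RARA cells at 9 h and 224.1, 90.7, 390.8 and 231.2 at 6 h, against 350.5 and 299.2 in GFP cells at 9 h and 438 and 474 at 6 h. TRIM65, a ubiquitin ligase that acts on the RNA sensor MDA5, read 648.2, 899.9, 858.8 and 1433 in PML-RARA cells at 9 h and 454.8, 280, 488.6 and 299.9 at 6 h, against 425.6 and 373 in GFP cells at 9 h and 500.8 and 879.2 at 6 h. For both genes the 2 kinds of cell lay on opposite sides of 0, at 1.54 (SE 0.40) in PML-RARA and -0.42 (SE 0.53) in GFP cells for ZNF850, and at 1.18 (SE 0.35) and -0.66 (SE 0.50) for TRIM65. FOLR1, a folate receptor, had 4292 and 2431 on the PR2VR arrays of 9 h, against 16423 and 27208 on the PRWT arrays of 9 h. VAMP5, a vesicle SNARE, read 43.2, 554.9, 230.4 and 102.4 in PML-RARA cells at 9 h and 657, 442.3, 412.8 and 541.6 at 6 h, with the 9 h arrays scattered over a wide range.

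**Figure D5:**
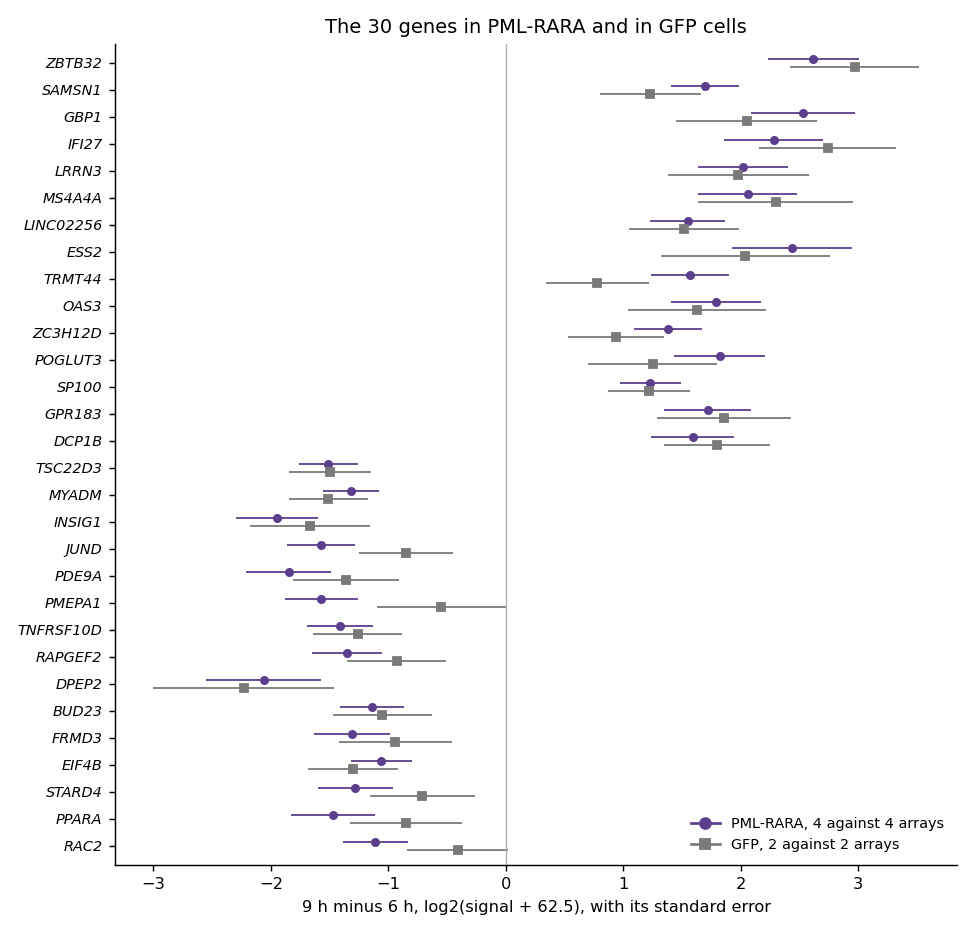
Log2 difference of 9 h minus 6 h with its standard error for the 30 leading genes in PML-RARA cells (circles, 4 against 4 arrays) and in GFP cells (squares, 2 against 2 arrays). The genes were chosen on the PML-RARA values; ZBTB32 is at 2.62 in PML-RARA and 2.97 in GFP cells, and TSC22D3 at -1.51 and -1.50.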

How the data were processed

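Expression was measured on Affymetrix whole-genome arrays, 1 per sample. The deposited values are intensity signals on a linear scale that the authors made with MAS5, per the submitters' processing notes, scaled to a common trimmed mean. Of 54675 probe sets, 41091 had 1 gene symbol, 1801 several and 11721 none in the platform annotation, and 41037 matched RefSeq by Entrez number. Each of 19775 genes was read from its probe set with the highest mean over the 12 arrays. Genes with a mean under the 40th percentile of probe sets (168.9) were left out, which kept 13959. Values were taken as log2(signal + 62.5), the offset being the 20th percentile of signals.

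Differences were tested with limma 3.58.1 (R 4.3.3), with a variance trend and Benjamini-Hochberg adjustment over all genes tested, after a check on simulated data. The fit of 9 h against 6 h had construct as a factor (5 residual degrees of freedom). The fit by 9 h number had 4, the group fits 4 on 8 arrays and 6 on 12, and contrasts with GFP came from the 12. Array measures used exact permutation tests. Genes named are 15 per direction by smallest unadjusted p among those without overlap, as none passed, up to 4 per list, 5 per direction for each number, between numbers and against GFP, 3 per direction between constructs, and RARA, PML and GAPDH. Other genes of the lists named beside them illustrate the range and were picked with their values known. The members and the gene lists were chosen with earlier results of these data known. Alternatives changed the offset, filter, probe sets, normalization, model and arrays.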

Additional observations from a re-analysis of the deposited data

Results flagged for a closer look

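In 280 sets of 4 arrays (140 named genes at each time) the array farthest out was compared with the other 3 by Dixon's criterion, which chance alone meets in about 1 set in 20. It was met 13 times.

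At 9 h, PRWT number 2 was low for FOSB, at 66.4 against 1470.3 to 2447 on the other arrays, and for IRF8, at 5586 against 9767.2 to 10584. PR2VR number 1 was low at 9 h for BUD23 (4009.3, others 5409.6 to 5743.2), for EGR3 (357.4, others 542.8 to 580.5) and for BMF, a BH3-only protein (866.8, others 1239.8 to 1302.5). PR2VR number 2 was high at 9 h for the noncoding LOC101927377, at 1029.2 against 211.7 to 262.7.

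At 6 h, PRWT number 1 was low for SP100 (3913.8, others 4692.6 to 4824) and for PML (3110.7, others 5749.7 to 5983.2), and PRWT number 2 was high for RPL8 (196131.4, others 124136.1 to 130079). PR2VR number 2 was high at 6 h for TNFRSF10D (11154.8, others 7456.9 to 7978.1) and SPRED1 (1071.9, others 494.8 to 548.9), and low for BMF (160.5, others 710.8 to 848.6). PR2VR number 1 was high at 6 h for C1RL, a complement protease (649.9, others 408 to 434.9).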

How the results depend on the processing

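Of 657 values for the 30 leading genes over 22 settings, 652 kept their direction and their side of the threshold and 5 newly passed it. Of 1776 values for 81 other named genes 1775 did so. These are the named list members at an unadjusted p under 0.05, with RARA, PML and GAPDH. Their direction was thus largely fixed by that choice, and genes named only in other contrasts are not among them. Of 1035 list medians 1008 moved by less than the spread between arrays. That spread was 0.68 for interferon-stimulated genes and 0.83 for inflammatory chemokines and cytokines, beside medians of 0.58 and 0.26. A median can therefore shrink or change sign and still be counted here. The 30 leading genes were chosen for lack of overlap, so leaving out arrays cannot turn their direction. For all these genes the side of the threshold that was kept is that of not passing. For 9 h number 2 minus 6 h, the 74 genes that passed became 24 with an offset of 16, 506 with an offset at the 40th percentile of signals, 303 with no filter, 27 with a stricter filter, 178 under quantile normalization, 978 with arrays centred on their medians, 510 over all probe sets and 128 with no variance trend; leaving out 1 array gave 0 to 398. The 6 between the 9 h numbers became 3, 75, 1 and 3 under the first 4 of these and 10 with no variance trend, and 0 to 55 without 1 array. In PRWT cells 0 to 1 passed without 1 array. ITIH4 turned to 1.22 with an offset of 16, which selected another probe set. For 9 h minus 6 h, the 872 higher and 428 lower genes at an unadjusted p under 0.05 became 372 and 812 with centred arrays, 1609 and 879 over all probe sets, 378 and 216 with the set as a random block, 346 and 168 with constructs averaged (where none passed), 281 and 264 without both 9 h number 2 arrays (a setting chosen after seeing the data), and 400 to 1130 and 251 to 653 without 1 array. Without overlap, 540 higher and 276 lower became 272 and 437, 978 and 530, 2790 and 1563 (constructs averaged, 2 values a time), 1241 and 837 (without both number 2 arrays), and 655 to 1266 and 345 to 566 without 1 array. Without 1 array the log2 GAPDH ratio differed by -0.44 to 0.41 and the actin ratio by -0.81 to 0.16. The causes were not tested. The replicate numbers were not taken as pairs across times, since deviations of same-numbered arrays of different times correlated at -0.01 to 0.17. With the number as a replicate block, 7 genes passed and 704 were lower at an unadjusted p under 0.05.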
